A study of Arabidopsis thaliana with 16 samples.

Results

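The genes described here are 9 nuclear genes of the photosynthetic apparatus, of 13356 genes that had a probe set of their own on the arrays. They were chosen by name: *LHCB4.1* (AT5G01530) and *LHCB4.2* (AT3G08940) of the light-harvesting antenna, *PSAE-1* (AT4G28750) and *PSAN* (AT5G64040) of photosystem I, *PSBW* (AT2G30570) and *PSBY* (AT1G67740) of photosystem II, *ATPC1* (AT4G04640) of the chloroplast ATP synthase, and *RCA* (AT2G39730) and *PRK* (AT1G32060) of carbon fixation. Each gene was represented by exactly 1 probe set, so all 9 could be read in all 16 arrays without a choice between probes. The question put to the arrays was in which order and by how much these transcripts were lost when zygotic embryos were turned into callus, how much of each came back in somatic embryos, and whether either step differed in the mutant.

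In chloroplasts, light is collected by antenna proteins that bind chlorophyll and is passed to the reaction centres of photosystem II and photosystem I. Electron transport between these complexes builds a proton gradient that drives the ATP synthase, and the ATP and reducing power are spent on fixing carbon in the Calvin cycle. The complexes are mosaics, since their core subunits are encoded in the plastid genome while the antenna and many small or peripheral subunits are encoded in the nucleus. Embryos of *Arabidopsis* are green and hold developing chloroplasts at the bent-cotyledon stage, and the nuclear photosynthesis genes are known for rising together when tissue greens and falling together when plastids lose their green form.

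Transcripts were measured on Affymetrix ATH1 arrays in wild type (WT, Columbia-0) and in *vtc2*, a mutant in the same background that makes little ascorbate, the *vtc2-5* insertion line in the study's methods. Each genotype was sampled at 4 stages with 2 biological replicates, which gave 8 groups and 16 arrays. The stages were bent-cotyledon zygotic embryos (ZE), callus-forming explants taken on day 7 (D7I) or day 14 (D14I) of culture with the auxin 2,4-D, and somatic embryos formed after transfer to medium without hormone. That last culture lasted 14 d in the study's methods. A single insertion line stands for the mutant on the arrays, and *VTC2* itself was not analysed here.

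Values are signal intensities, which had a 2% trimmed mean of 500 in each array, and signals below 30 are called weak. A log2 difference compares the means of log2 signals of 2 groups in 1 limma fit over all 16 arrays, and a probe set is called changed at an adjusted p (Benjamini-Hochberg over 22746 probe sets) under 0.05 with at least a 2-fold difference. The median signal lay between 148 and 199 in the 16 arrays. Of 24 listed seed storage and late embryogenesis genes, 5 could be measured. In WT zygotic embryos the oleosin gene *OLEO3* read 29445 and 24361, and *AtLEA4-1* and *LEA4-5* were also far above the weak level, while *M10* and *M17* lay below 3 there and between 2744 and 3950 at D7I. In the summed signal of these 5 genes 1 library stood apart. The sum was 196 in WT somatic embryos replicate 1, against 19960 in replicate 2 and 21632 and 21273 in *vtc2* somatic embryos. *M17* alone did not set that library apart, since it was low in all somatic embryos (9.17 and 32.9 in WT, 42.6 and 16.0 in *vtc2*). Results for that stage are therefore also given without each array.

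All 9 genes fell steeply within the first week of culture in both genotypes, by 16.7- to 310-fold in WT and by 21.0- to 319-fold in *vtc2*. Each gene was called lower in both genotypes, against 12% of all probe sets in WT and 12.1% in *vtc2*. The median of the 9 log2 differences was -4.40 in WT and -5.19 in *vtc2*, while that of all probe sets was 0.14 and 0.19. Arrays of whole explants cannot tell apart fewer green cells and less of these transcripts per cell.

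Although not clearly set apart from that of *LHCB4.2*, the largest fall was that of *PSAN*, the small subunit on the lumenal side of photosystem I where plastocyanin docks. Its signal was 9415 and 10427 in WT zygotic embryos and 43.7 and 23.4 at D7I, and it was 9712 and 10800 against 36.1 and 28.6 in *vtc2*. The stages were thus separated by more than 2 orders of magnitude, with D7I at the edge of weak signals, and the log2 difference was -8.28 ± 0.73 (standard error) in WT and -8.32 ± 0.73 in *vtc2* (limma adjusted p = 2.19e-05 and 1.78e-05). The other photosystem I gene, *PSAE-1*, encodes a stromal subunit at the ferredoxin docking side. It went from 17462 and 12441 to 323 and 199 in WT, and from 15260 and 13511 to 191 and 121 in *vtc2*. Its differences of -5.86 ± 0.32 and -6.56 ± 0.32 were smaller than those of *PSAN*, and its D7I signals were all far above the weak level.

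*LHCB4.1* and *LHCB4.2* encode 2 isoforms of the same minor antenna protein, which links the major antenna to the photosystem II core, but they did not fall equally. *LHCB4.2* went from 8404 and 11213 in WT zygotic embryos to 60.3 and 51.2 at D7I, a log2 difference of -7.45 ± 0.33. *LHCB4.1* went from 18022 and 15413 to 956 and 656, a difference of -4.40 ± 0.28. In *vtc2* the differences were -7.37 ± 0.33 for *LHCB4.2* and -5.19 ± 0.28 for *LHCB4.1*. Both isoforms were called in both genotypes, and at D7I *LHCB4.2* was left with 0.572% of its zygotic signal in WT where *LHCB4.1* kept 4.75%.

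*PRK* encodes phosphoribulokinase, which makes the carbon dioxide acceptor of the Calvin cycle. It dropped from 11776 and 8727 to 290 and 283 in WT, and from 11426 and 9856 to 143 and 90.1 in *vtc2*, or by -5.14 ± 0.32 and -6.55 ± 0.32 on the log2 scale. *RCA* encodes Rubisco activase, the ATPase that clears inhibitory sugar phosphates from Rubisco, and its replicates at D7I in WT lay further apart than those of *PRK*, at 612 and 254 after 6979 and 9168 in zygotic embryos. Its difference was -4.34 ± 0.37 in WT and -4.63 ± 0.37 in *vtc2*, where 9327 and 7380 became 297 and 381.

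The remaining 3 genes had the smallest falls together with *RCA* and *LHCB4.1*. They encode a pair of low-mass membrane proteins of photosystem II and the gamma subunit, the turning shaft of the ATP synthase. *PSBW* changed by -4.06 ± 0.16 in WT (10568 and 9847 to 665 and 559), *PSBY* by -4.29 ± 0.18 (13632 and 15912 to 780 and 732) and *ATPC1* by -4.21 ± 0.24 (10277 and 10748 to 667 and 486). In *vtc2* they changed by -4.45, -4.68 and -4.40. From *LHCB4.1* down to *PSBW*, neighbouring genes in the WT order differed by less than 2 combined standard errors, so *LHCB4.1*, *RCA*, *PSBY*, *ATPC1* and *PSBW* had no order among them. A step larger than that separated *LHCB4.2* from *PSAE-1* in WT and *PRK* from *LHCB4.1* in *vtc2*. *PSAN* and *LHCB4.2*, with the largest falls, lay closer than that in both genotypes (0.83 apart in WT and 0.95 in *vtc2*). Which of them fell furthest was therefore not resolved.

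**Figure D1:**
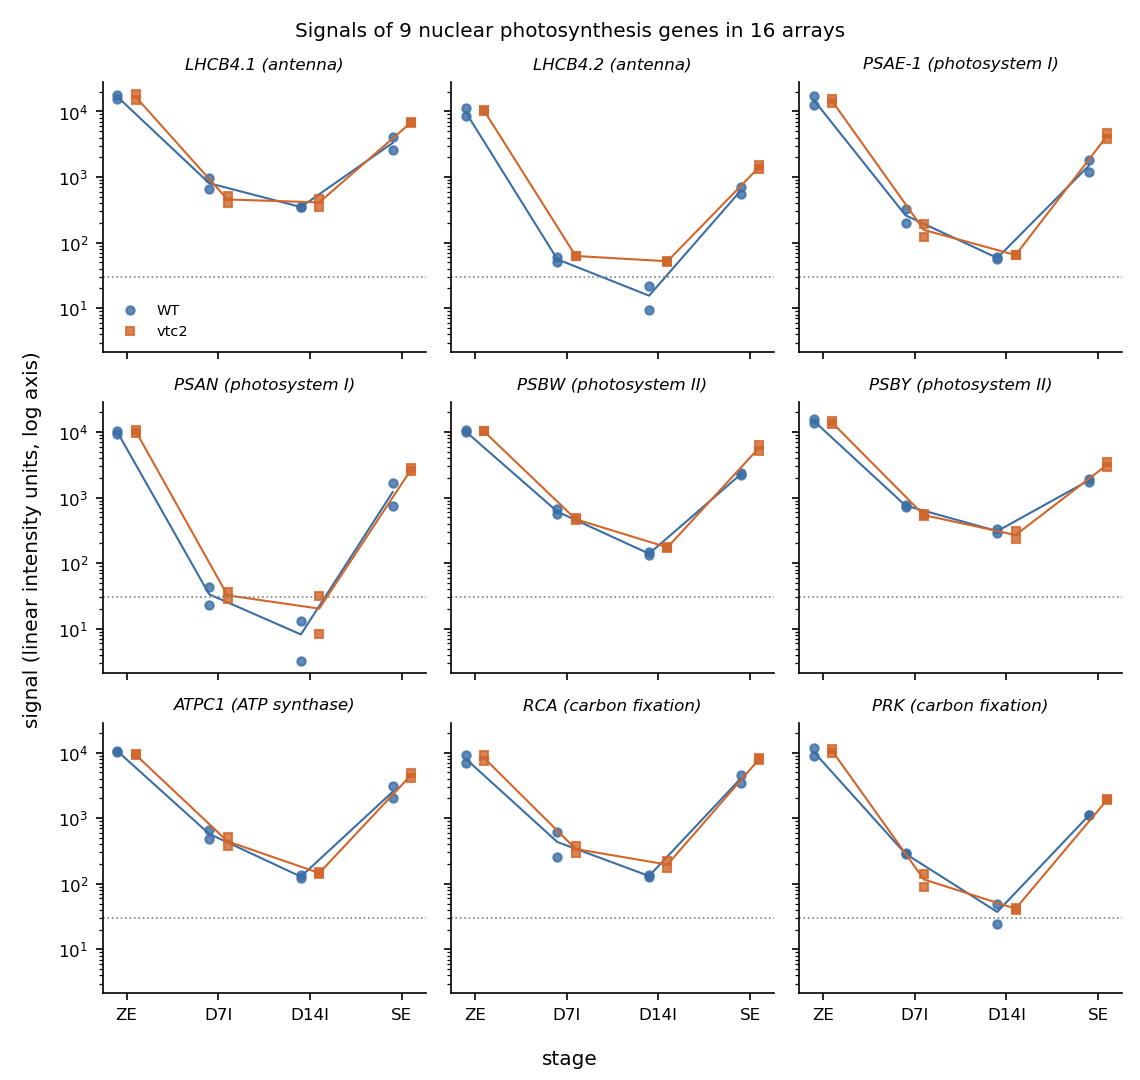
Signal intensity of the 9 nuclear photosynthesis genes in every array (log axis), by stage from zygotic embryos (ZE) through 7 d and 14 d of induction (D7I, D14I) to somatic embryos (SE), with WT as circles and *vtc2* as squares, 1 point per array, lines through the group means and a dotted line at 30, below which signals are weak. Each gene falls from zygotic embryos to D14I and rises again in somatic embryos, and *PSAN* and *LHCB4.2* fall below a signal of 30 at D14I in WT.

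The second week on 2,4-D took the transcripts lower still in WT, by less than the first. The genes called lower were 8 of 9 in WT, against 3.79% of all probe sets, with a median log2 difference of -2.12. In *vtc2*, 4 of 9 were called lower, against 2.39% of all probe sets, with a median of -1.02: *PSBW* (-1.43), *PSBY* (-1.02), *ATPC1* (-1.59) and *PRK* (-1.44). All 9 differences were below 0 in both genotypes, but the difference between the steps of *vtc2* and WT was called for 0 of 9 genes by limma, with adjusted p from 0.243 to 0.758, against 0.0132% of all probe sets called higher. At an unadjusted p under 0.05 there were 4 of the 9, against 2538 of all 22746 probe sets. Leaving out single arrays changed the count in *vtc2* to 2 without D7I replicate 1 or D14I replicate 1, and to 1 without D7I replicate 2 or D14I replicate 2.

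*PRK* lost most in this week in WT, from 290 and 283 at D7I to 24.7 and 49.7 at D14I, a log2 difference of -3.03 ± 0.32. At *PSBW* the arrays read 665 and 559 at D7I and 148 and 131 at D14I, and at *ATPC1* 667 and 486 against 134 and 123, so that they were 4.38- and 4.44-fold lower. The smallest falls were those of *LHCB4.1* and *PSBY*, 2.27- and 2.46-fold. *PSAN*, the one gene not called in WT, read 13.1 and 3.28 at D14I, where both signals were weak, and its difference of -2.29 had an adjusted p of 0.0751 (limma). With 30 added to each signal before taking logs, the *PSAN* difference was -0.73, that of *LHCB4.2* -0.92 in place of -1.96, and that of *PRK* -2.26, so that the size of the later fall of *PSAN* and *LHCB4.2* rested on weak signals.

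By D14I the 9 genes were left with 0.0662% (*PSAN*) to 2.09% (*LHCB4.1*) of their zygotic signal in WT, and with 0.161% (*PSAN*) to 2.46% (*LHCB4.1*) in *vtc2*. Of the whole log2 loss up to D14I, 62.9% (*PRK*) to 79.2% (*LHCB4.2*) had happened by D7I in WT, and 73.4% (*ATPC1*) to 97.2% (*LHCB4.1*) in *vtc2*. The order of the genes by percent of zygotic signal was alike in both genotypes, with a Spearman correlation over the 9 genes of 0.97 at D7I and 0.93 at D14I, given as a description since all 9 values of a genotype come from the same arrays.

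**Figure D2:**
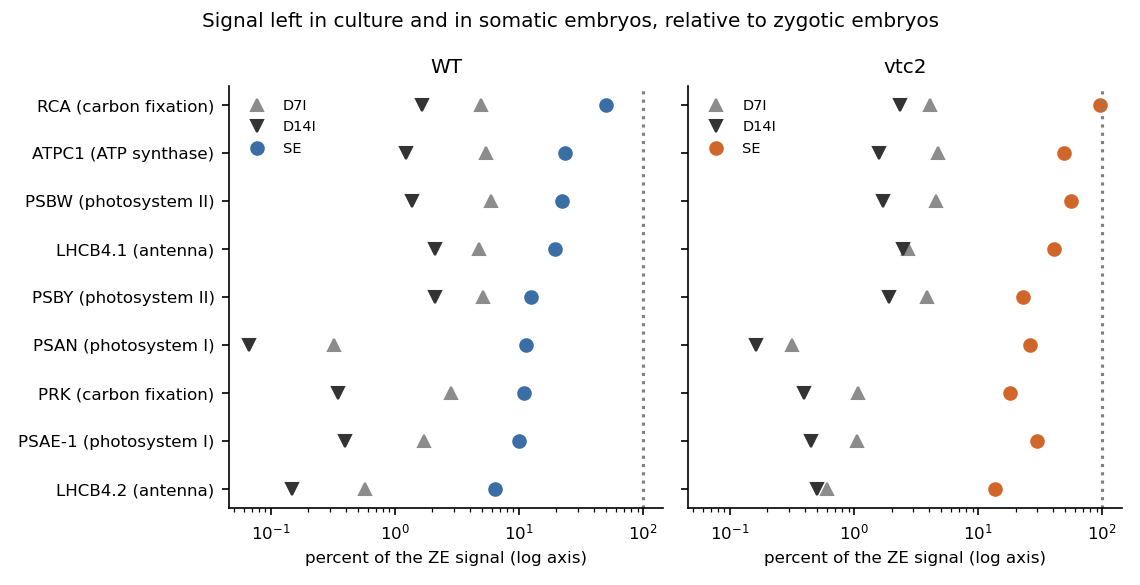
Geometric mean signal of each of the 9 genes as percent of its own mean in zygotic embryos of the same genotype (log axis), at D7I, D14I and in somatic embryos (SE), in panels for WT and *vtc2* with a dotted line at 100% and genes in the order of WT somatic embryos. The genes span 0.0662% to 2.09% at D14I in WT, and in somatic embryos *RCA* stands highest, at 50.0% in WT and 95.7% in *vtc2*.

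Every gene rose again from D14I to somatic embryos in both genotypes. All 9 were called higher, against 9.96% of all probe sets in WT and 11.3% in *vtc2*, with median log2 differences of 4.65 and 5.04, and the arrays of the stages did not overlap for any of the 9, which held for 30.2% and 30.5% of all probe sets in that direction. These 9 calls stood in WT and in *vtc2* with each array left out in turn.

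*PSAN*, which had the largest fall, also had the largest rise, in *vtc2* by under 2 combined standard errors. Its signal went from 13.1 and 3.28 to 1674 and 749 in WT, and from 8.46 and 32.1 to 2806 and 2513 in *vtc2*. The log2 differences were 7.42 ± 0.73 and 7.33 ± 0.73, or 4.93 in WT with 30 added to each signal. The smallest rise was that of *PSBY*, from 284 and 332 to 1952 and 1718 in WT (2.58 ± 0.18) and from 304 and 234 to 3442 and 2917 in *vtc2* (3.57 ± 0.18). Between them stood the other genes. In WT *LHCB4.1* rose by 3.21, *PSBW* by 4.03, *ATPC1* by 4.27, *PSAE-1* by 4.65, *RCA* by 4.93, *PRK* by 4.98 and *LHCB4.2* by 5.44. From *PSBW* to *LHCB4.2* in that order, no neighbours differed by more than 2 combined standard errors. The ends of that order, *PSBW* at 4.03 ± 0.16 and *LHCB4.2* at 5.44 ± 0.33, lay further apart than that.

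*RCA* came nearest to its zygotic level. Its arrays read 138 and 125 at D14I, then 4630 and 3451 in WT somatic embryos, and 220 and 171, then 8234 and 7660 in *vtc2*. The *vtc2* somatic embryos lay inside the range of the *vtc2* zygotic embryos (9327 and 7380), at 95.7% of their mean, and the WT somatic embryos lay below the range of the WT zygotic embryos, at 50.0%. *PRK*, the other gene of carbon fixation, rose by a like log2 amount in WT, from 24.7 (weak) and 49.7 to 1112 and 1102. It stood at 10.9% of its zygotic level.

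**Figure D3:**
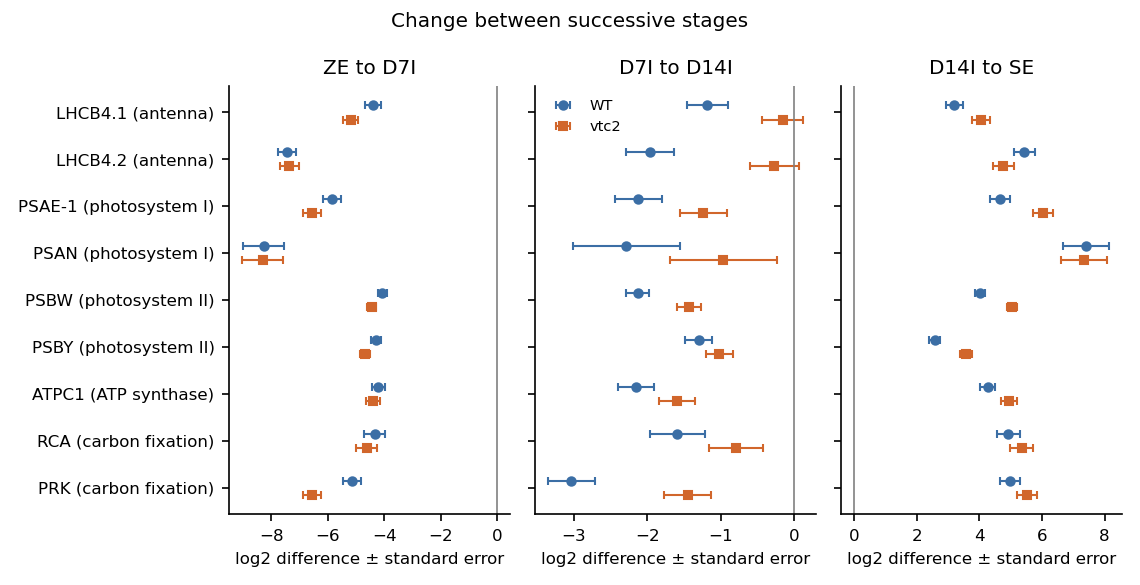
Log2 difference of each of the 9 genes with its standard error from the limma fit, in panels for ZE to D7I, D7I to D14I and D14I to somatic embryos (SE), with WT and *vtc2* in different colours. The first step is below -4 for every gene, the second is between -3.03 and -1.18 in WT and between -1.59 and -0.15 in *vtc2*, and the third is above 2.5 for every gene.

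Somatic embryos did not reach the photosynthetic transcript levels of zygotic embryos for most of the genes. In WT, 8 of 9 genes were called lower in somatic than in zygotic embryos, against 10.3% of all probe sets, with a median log2 difference of -3.01. In *vtc2*, 6 of 9 were called lower, against 12.2% of all probe sets, with a median of -1.75. The levels ranged from 6.36% (*LHCB4.2*) to 50.0% (*RCA*) of the zygotic signal in WT, with a median of 12.4%, and from 13.6% (*LHCB4.2*) to 95.7% (*RCA*) in *vtc2*, with a median of 29.7%.

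*LHCB4.2* read 701 and 544 in WT somatic embryos, 15.7-fold below its zygotic level (log2 difference -3.98 ± 0.33, adjusted p = 1.96e-05). *PSAE-1*, at 1805 and 1188, was 10.1-fold lower, *PRK* 9.16-fold, *PSAN* 8.85-fold and *PSBY* 8.04-fold. *LHCB4.1* was 5.17-fold lower, *PSBW* 4.50-fold and *ATPC1* 4.25-fold. For *RCA* in WT the difference was -1.001 (95% interval -1.83 to -0.17) with an adjusted p of 0.0596, and it was called lower in some alternatives, with median centring for example (-1.36, adjusted p = 0.0230). In *vtc2*, *RCA* differed by -0.06 (interval -0.89 to 0.77), *PSBW* by -0.84 (adjusted p = 0.00261, under 2-fold) and *PSAN* by -1.95 (adjusted p = 0.0618), and the other 6 genes were called lower.

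Measured against each gene's own log2 loss up to D14I, the part regained in somatic embryos was 46.1% (*PSBY*) to 83.1% (*RCA*) in WT, with a median of 60.9%, and 62.4% (*LHCB4.2*) to 98.8% (*RCA*) in *vtc2*, with a median of 77.5%. By class, the mean log2 change from zygotic to somatic embryos in WT was -3.24 for photosystem I, -3.17 for the antenna, -2.59 for photosystem II, -2.10 for carbon fixation and -2.09 for the ATP synthase gene. These class means rest on 1 or 2 genes each, and genes of a class spread widely: *RCA* and *PRK* lay at -1.001 and -3.20. In *vtc2* the class means were -1.85, -2.08, -1.49, -1.27 and -1.03 in the same order.

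Since the genes within a class moved unequally, the change of the one was set against that of the other within each array, in all 4 classes that had 2 genes and at 3 steps, with 4 arrays per stage from both genotypes together. An exact two-sided permutation test over arrays cannot go below p = 0.0286 here, or 0.0429 after Benjamini-Hochberg adjustment over the 12 tests, and the pairs were taken up with the values of the genes known. Arrays were permuted without regard to genotype, so each difference is a mean over both genotypes and does not show how they differ. In the antenna, *LHCB4.1* fell by 2.61 log2 units less than *LHCB4.2* into D7I and remained 1.60 units above it, relative to zygotic embryos, in somatic embryos (both adjusted p = 0.0429, the smallest possible). In photosystem I, *PSAE-1* fell by 2.09 units less than *PSAN* into D7I (adjusted p = 0.0429), or by 1.34 with 30 added to each signal, with *PSAN* weak in 2 of the 4 D7I arrays, and from zygotic to somatic embryos the pair differed by 0.00 (adjusted p = 0.971).

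In photosystem II the pair parted after the first week. The falls of *PSBW* and *PSBY* into D7I differed by 0.23 (adjusted p = 0.103, permutation test). From D7I to D14I they changed by -2.13 and -1.30 in WT and by -1.43 and -1.02 in *vtc2*, a step not among the permutation tests. *PSBW* then rose by 1.46 units more than *PSBY* from D14I to somatic embryos (adjusted p = 0.0429). From zygotic to somatic embryos *PSBW* lost 1.07 units less (adjusted p = 0.0429). In carbon fixation *RCA* fell by 1.36 units less than *PRK* into D7I (adjusted p = 0.0762, permutation test). Their rises from D14I differed by -0.11 (adjusted p = 0.717), or by 0.46 with 30 added to each signal (exact p = 0.0571). The likeness of these rises thus depended on the low D14I signals of *PRK*. From zygotic to somatic embryos *RCA* lost 2.2996 units less than *PRK* (adjusted p = 0.0429). The rises of the antenna pair and the photosystem I pair from D14I differed by -1.46 and -2.03, and by -0.46 and -0.56 with 30 added to each signal (exact p = 0.114 for both), so these depended on the weak signals of *LHCB4.2* and *PSAN* at D14I.

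Between the genotypes, the zygotic embryos started from alike levels: 0 of 9 genes were called by limma, 0 had an unadjusted p under 0.05, and the differences of *vtc2* minus WT ran from -0.19 (*ATPC1*) to 0.09 (*LHCB4.2*). Few probe sets were called at all at that stage (0.00879% higher and 0.0264% lower, with 1558 of 22746 at an unadjusted p under 0.05). At D7I, 7 of 9 genes were lower in *vtc2* and 0 were called by limma (5 had an unadjusted p under 0.05), against 0.717% of all probe sets called lower, with 4679 at an unadjusted p under 0.05. The largest difference there was that of *PRK*, 290 and 283 in WT against 143 and 90.1 in *vtc2* with no overlap, or -1.34 (95% interval -2.06 to -0.62). Its adjusted p was 0.0545 and between 0.0117 and 0.0496 in 6 alternatives, in each of which it was called. At D14I, 8 of 9 genes were higher in *vtc2*, with a median of 0.25 and 0 called by limma (1 had an unadjusted p under 0.05), against 0.0176% of all probe sets called higher and 1024 at an unadjusted p under 0.05. *LHCB4.2* had the largest difference at D14I, with 21.6 and 9.40 in WT, both weak, against 52.7 and 51.2 in *vtc2*, and its adjusted p was 0.300.

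In somatic embryos all 9 genes were higher in *vtc2* than in WT, by 1.73- to 2.91-fold, and the arrays of the genotypes overlapped for none of them, which held for 18.9% of all probe sets in that direction. The median log2 difference was 1.07, where that of all probe sets was -0.15. Called higher were 3 of 9, *PSBW*, *PSAE-1* and *LHCB4.1*, against 1.69% of all probe sets. At an unadjusted limma p under 0.05 there were 8 of 9, against 5902 of all 22746 probe sets.

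*PSBW* read 2342 and 2196 in WT and 5136 and 6384 in *vtc2* somatic embryos, 2.52-fold higher (log2 difference 1.34 ± 0.16, limma adjusted p = 0.00699). *PSAE-1* read 1805 and 1188 against 4749 and 3826, which was 2.91-fold higher (1.54 ± 0.32, adjusted p = 0.0290). *LHCB4.1* read 4054 and 2561 against 6841 and 6732, 2.11-fold higher (1.07 ± 0.28, adjusted p = 0.0499). The lowest *vtc2* array exceeded the highest WT array by 2.19-fold for *PSBW*, 2.12-fold for *PSAE-1* and 1.66-fold for *LHCB4.1*.

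Among the genes not called, *PSBY* read 1952 and 1718 in WT and 3442 and 2917 in *vtc2*, a difference of 0.79 with an adjusted p of 0.0379 that stayed under 2-fold. *LHCB4.2* read 701 and 544 against 1321 and 1509 (1.19, adjusted p = 0.0600), and *ATPC1* 3042 and 2010 against 4903 and 4145 (0.87, adjusted p = 0.0615). For the genes of carbon fixation the values were 4630 and 3451 against 8234 and 7660 at *RCA* (0.99, adjusted p = 0.128), and 1112 and 1102 against 1882 and 1955 at *PRK* (0.79, adjusted p = 0.155). *PSAN* had the widest replicates, 1674 and 749 against 2806 and 2513, and a difference of 1.25 with an adjusted p of 0.324.

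**Figure D4:**
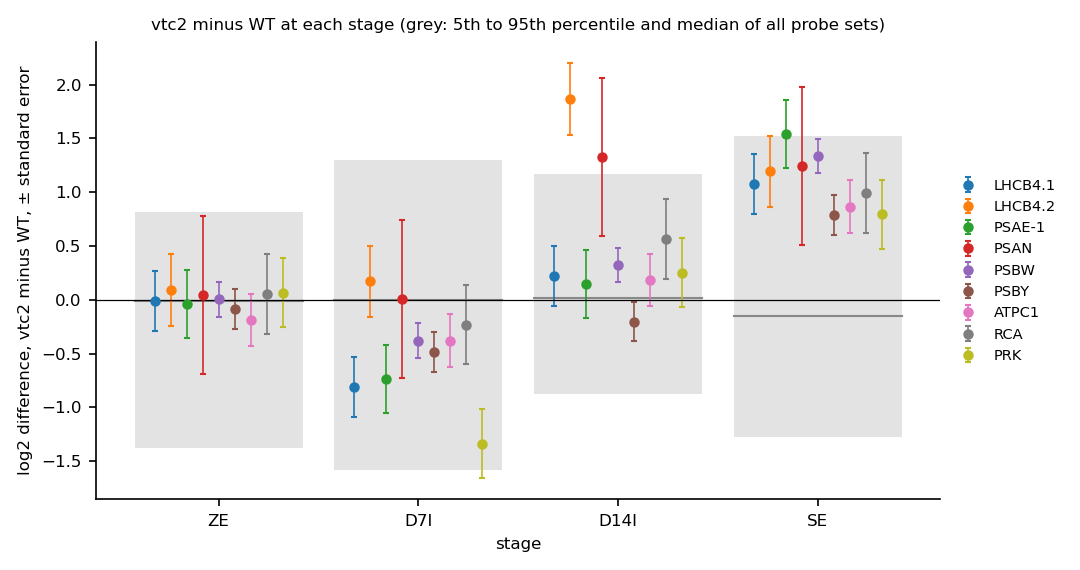
Log2 difference of *vtc2* minus WT with its standard error for each of the 9 genes (colours) at each stage (ZE, D7I, D14I and somatic embryos, SE). Grey bands span the 5th to the 95th percentile of all probe sets, with a grey line at their median. The differences lie between -0.19 and 0.09 in zygotic embryos and between 0.79 and 1.54 in somatic embryos, and *PSBW*, *PSAE-1* and *LHCB4.1* are called there.

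The WT replicates were not alike in this stage. All 9 genes were higher in WT somatic embryos replicate 1, the array with the low seed transcripts, than in replicate 2, with a median of 0.42 on the log2 scale, where 45.3% of all probe sets were higher. Against replicate 1 alone the median of *vtc2* minus WT was 0.78, and against replicate 2 alone 1.38, with 9 of 9 genes higher in *vtc2* both times. Without any single one of the 4 arrays of somatic embryos only *PSBW* was called, with adjusted p from 0.00721 to 0.0419, and *PSAE-1* had 0.0512 without WT replicate 1 and 0.0636 without WT replicate 2. The part of the seed transcripts in these differences was not tested.

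Whether the steps themselves differed between the genotypes was tested as an interaction. For the fall from ZE to D7I, 0 of 9 genes were called by limma, against 0.0923% of all probe sets called lower, and 1 of 9 had an unadjusted p under 0.05, against 3359 of 22746 probe sets, and the largest difference was that of *PRK*, -1.40 (adjusted p = 0.202). For the rise from D14I to somatic embryos, 0 of 9 were called by limma, against 0.0791% of all probe sets called higher, and 3 of 9 had an unadjusted p under 0.05, against 3915 of 22746 probe sets, the lowest adjusted p being that of *PSBW* (1.01, adjusted p = 0.0903). For zygotic against somatic embryos 6 of 9 had an unadjusted p under 0.05, against 4616 of 22746 probe sets. Called was 1 of 9, *PSBW*, against 0.321% of all probe sets called higher. Its level changed by -2.17 in WT and by -0.84 in *vtc2*, a difference of 1.33 (95% interval 0.82 to 1.84, adjusted p = 0.0430) that was called in only 1 of the 16 fits with 1 array left out (0.0314, without WT somatic embryos replicate 2), the adjusted p reaching 0.110 in the others. All 9 interaction terms for that comparison were positive, from 0.73 (*PRK*) to 1.58 (*PSAE-1*).

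Few of the other listed nuclear genes of photosynthesis and chlorophyll metabolism could be measured, and most of those fell and rose at the same steps, with smaller medians. With the 9 genes included, 3 of 21 were measured for the antenna, 2 of 13 for photosystem I and 3 of 21 for carbon fixation. Chlorophyll synthesis and turnover had 9 of 29. Of 22 further genes measured on the arrays from lists of these functions, 14 were called lower and 0 higher from ZE to D7I in WT. From D14I to somatic embryos 11 were called higher and 0 lower, and 12 were called lower in somatic than in zygotic embryos. The shares of all probe sets called in these directions were 12%, 9.96% and 10.3%. The medians of the 22 were -1.70, 1.23 and -1.29 at these steps. In *vtc2* the counts were 15, 14 and 10, against 12.1%, 11.3% and 12.2% of all probe sets. Between the genotypes limma called 0 of 22 in somatic embryos, against 1.69% of all probe sets called higher. There 15 were higher in *vtc2* and 5 had an unadjusted p under 0.05, against 5902 of 22746 probe sets. At D7I 1 was called lower in *vtc2*, *LHCB4.3*, against 0.717% of all probe sets.

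*SBPASE*, sedoheptulose-bisphosphatase of the Calvin cycle, read 8071 and 7667 in WT zygotic embryos, 513 and 435 at D7I, 27.7 and 57.5 after the second week, and 1251 and 728 in somatic embryos, with log2 differences of -4.06 into D7I and 4.58 out of D14I. *HPR*, the hydroxypyruvate reductase of photorespiration, changed by -3.68 and 4.305, and its somatic embryo arrays read 2019 and 2039 in WT and 3305 and 3247 in *vtc2*. For *PORB*, which makes chlorophyllide in the light, the changes were -5.32 and 4.25, and its somatic embryos were alike in the genotypes, at 995 and 779 in WT and 968 and 972 in *vtc2*.

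Of the 9 genes of chlorophyll synthesis and turnover measured, 7 were called lower into D7I and 4 higher out of D14I in WT. The shares of all probe sets were 12% and 9.96%. *CHLM*, a methyltransferase on the magnesium branch, changed by -3.13 and 1.68, and *HEME2*, earlier in the tetrapyrrole pathway, fell by 2.69 into D7I. *PSB27*, an assembly factor of photosystem II, changed by -2.70 and 2.16, and *PGRL1B*, which acts in cyclic electron flow, by -1.50 and 1.58. *LHCB4.3*, the related antenna gene, went from 7910 and 7264 to 1651 and 1238 into D7I in WT (-2.41), and was lower in *vtc2* at D7I, at 501 and 289 (-1.91, adjusted p = 0.0198). *ATPC2*, the second gene for the gamma subunit, changed by -1.21 into D7I and by 0.25 out of D14I, the latter not called.

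Of the plastid-encoded partners of the same complexes, 19 were measured. All 19 had negative differences from ZE to D7I, with medians of -2.34 in WT and -2.44 in *vtc2*, and 2 in WT and 6 in *vtc2* were called, against the 12% and 12.1% of all probe sets. In somatic against zygotic embryos 13 were called lower in WT and 3 in *vtc2*, against 10.3% and 12.2% of all probe sets. The medians of these changes were -4.60 and -3.03. For a difference between the genotypes in this change, limma called 0 of the 19 (0 had an unadjusted p under 0.05), against 0.321% of all probe sets called higher. Limma called 0 from D14I to somatic embryos in either genotype (0 in WT and 1 in *vtc2* had an unadjusted p under 0.05). Their replicates lay far apart in somatic embryos, with summed signals of 14549 and 2662 in WT and 4167 and 39353 in *vtc2*, while the mean of the 9 nuclear genes, centred on their own means, was 2.12 and 2.06 on the log2 scale in the same *vtc2* arrays. Their correlation with the mean profile of the 9 genes was below 0.9 for all 19.

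**Figure D5:**
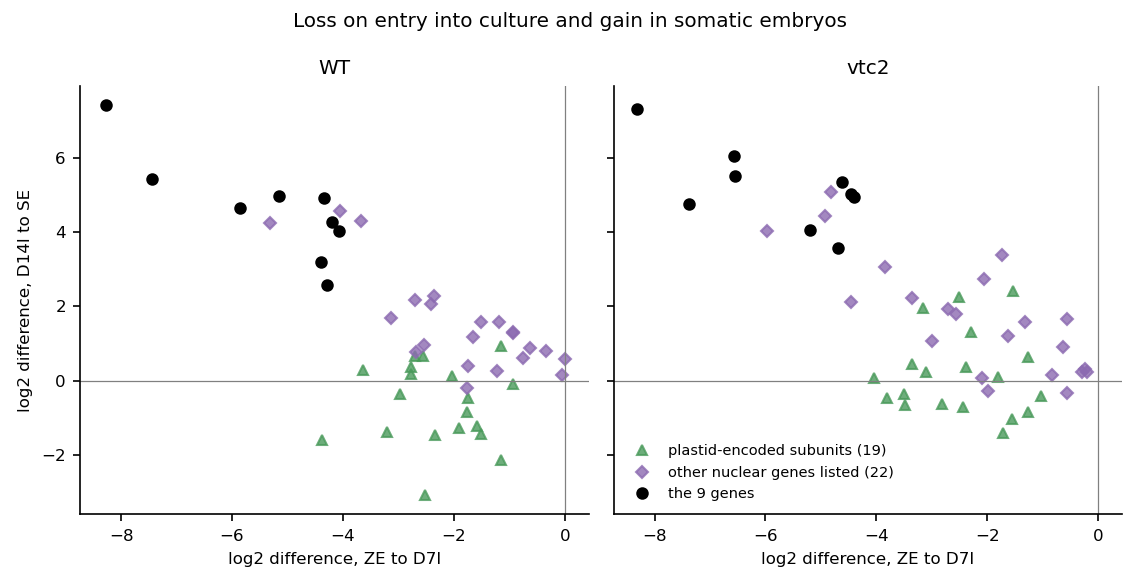
Log2 change from D14I to somatic embryos (SE) against log2 change from ZE to D7I, in panels for WT and *vtc2*, 1 point per gene for the 9 nuclear photosynthesis genes (black circles), the 22 other nuclear genes listed (diamonds) and the 19 plastid-encoded subunits (triangles), with lines at 0. The 9 genes lie in the upper left of both panels, between -8.28 and -4.06 on the x axis and 2.58 and 7.42 on the y axis in WT, while the plastid-encoded genes lie between -3.08 and 0.94 on the y axis there.

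The 9 genes formed a tight profile across the 16 arrays. Pairwise Pearson correlations of log2 signals ran from 0.927 to 0.996 with a median of 0.98 over 36 pairs. Each gene correlated with the mean profile of the 9 at 0.977 (*RCA*) to 0.997 (*PSAE-1*). Because that mean includes the gene itself, these values are raised by design and cannot be set against those of other genes. These are descriptions over arrays that share stages and scaling. Of the 22737 other probe sets, 262 exceeded 0.95, and 10 of the 22 other listed genes did. The most alike were sought only among probe sets with 1 gene in the annotation. They were AT1G60000 (0.99), AT3G61870, AT1G52220, AT5G51010, AT2G43560, AT2G42220, AT4G16980, *PORB*, AT2G26500 and AT1G74730, the last also at 0.99. AT2G26500 had mean signals of 11290 in WT zygotic embryos, 44.2 at D14I and 2463 in somatic embryos, and 5259 in *vtc2* somatic embryos.

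Markers of other tissues moved as follows. Of the shoot and leaf primordium list 2 of 14 genes were measured, *YAB3* and *CLV3*. Both were called lower into D7I in WT, against 12% of all probe sets. Out of D14I limma called 0 in WT (0 at an unadjusted p under 0.05), against 9.96% of all probe sets called higher. In *vtc2* 1 of the 2 was called higher out of D14I (median 2.33), against 11.3% of all probe sets. Both were higher in *vtc2* than in WT somatic embryos, by a median of 1.24. Limma called 0 there (1 at an unadjusted p under 0.05), against 1.69% of all probe sets called higher. *CLV3* was weak in WT at D7I, at D14I and in somatic embryos (means 14.3, 10.1 and 12.2). It was also weak in *vtc2* at D7I and D14I (5.26 and 9.77), so these medians rest partly on weak signals. The summed signal of *YAB3* and *CLV3* was 887 and 908 in WT zygotic embryos, 45.4 and 67.2 at D14I, 61.8 and 167 in WT and 237 and 190 in *vtc2* somatic embryos. Of the epidermis and guard cell list 4 of 12 were measured. In WT 2 were called lower into D7I and 1 higher out of D14I, against 12% and 9.96% of all probe sets. The gene called higher was *STOMAGEN*, for a secreted peptide of the leaf mesophyll that promotes stomata. It read 901 and 657 in WT zygotic embryos and a weak 1.203 and 4.47 at D14I. In WT somatic embryos *STOMAGEN* read 31.9 and 101.4. *SPCH*, also called lower into D7I in WT, went from 150 and 135 in zygotic embryos to 5.67 and 5.13. It did not return, at 5.49 and 13.5 in WT and 7.46 and 6.77 in *vtc2* somatic embryos, all weak. The other genes measured from that list were called at neither step in WT. The summed signal of that list was 1111 and 850 in WT zygotic embryos, 30.03 and 59.8 at D14I, and 50.7 and 147 in the somatic ones. None of the 16 root genes listed was measured. The part of shoot, leaf or epidermal cells in the photosynthesis transcripts was not tested.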

How the data were processed

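Total RNA from 16 samples (2 genotypes, 4 stages, 2 biological replicates each) had been hybridised to ATH1 arrays. The deposited table holds 1 linear signal intensity per probe set and array, and the authors' methods name the MAS software for presence calls and RMA for normalization. However, the values were on a linear scale and had a 2% trimmed mean of 500 in every array, so they are used here as globally scaled signal intensities. Signals were taken to log2 with no offset, 64 controls of 22810 probe sets were set aside, and 8 group means were fitted with limma 3.58.1 in R 4.3.3 (8 residual and 1.62 prior degrees of freedom), with Benjamini-Hochberg adjustment over 22746 probe sets. The methods' multiclass SAM gives 1 value over all groups and no contrast, and was not used. Gene names came from the platform annotation: 13513 probe sets had 1 gene, 503 several and 8730 none, and none was named from a probe set with several. Percent and share values use means of log2 signals. The fit was tested on simulated data first. The 9 genes, the lists and the comparisons were chosen with earlier results of these data known. Of each further list up to 3 genes were named, those with the largest called WT change from ZE to D7I, and as most alike the 10 genes with the highest correlation with the mean profile. Alternatives were an offset of 30, a filter, centring on array medians, quantile normalization, a prior with an intensity trend, weights for arrays, only the groups compared, the replicate number as a block and each array left out. With 2 arrays per group, their number limits the precision.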

Additional observations from a re-analysis of the deposited data

Results flagged for a closer look

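*PSBW* differed between the genotypes in its change from zygotic to somatic embryos, by 1.33 on the log2 scale (limma interaction, adjusted p = 0.0430). It was picked out because this difference between *vtc2* and WT passed the test itself. The signals were 10568 and 9847 in zygotic and 2342 and 2196 in somatic embryos of WT, and 10209 and 10267 and then 5136 and 6384 in *vtc2*. With 2 arrays per group, single arrays could not be tested for standing apart.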

How the results depend on the processing

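The 9 calls from ZE to D7I and from D14I to somatic embryos stood in both genotypes under every alternative run. A fit of only the groups compared, which has fewer arrays, left 0 calls from D7I to D14I in WT and in *vtc2*, 0 for *vtc2* against WT in somatic embryos and 0 for the ZE to somatic embryo interaction, but in each of these comparisons it also called 0 of all 22746 probe sets (2878 to 6108 had an unadjusted p under 0.05). At D7I, *vtc2* against WT had 1 call (*PRK*) with the offset, the filter, quantile normalization, median centring, array weights and the trended prior. In somatic embryos it had 5 with the offset and 1 with array weights. The interaction from D14I to somatic embryos had 1 call with the offset and with the trended prior, and that from ZE to somatic embryos had 2 with the offset and 0 with quantile normalization, array weights and the replicate block. Causes were not tested. With each array left out in turn, calls ranged from 6 to 8 (WT, D7I to D14I), 7 to 9 (WT, ZE to somatic embryos), 1 to 5 (*vtc2*, D7I to D14I), 5 to 7 (*vtc2*, ZE to somatic embryos), 0 to 1 (genotypes at D7I and at D14I, and the interaction from ZE to somatic embryos) and 1 to 3 (genotypes in somatic embryos). They stayed at 9 for the 4 steps named first and at 0 for the genotypes in zygotic embryos and the other 3 interactions. A lone array left in a group was assumed to vary like the other groups. The 4 reversed differences were all small: *LHCB4.1* from D7I to D14I in *vtc2* (0.04 without *vtc2* D7I replicate 2, 0.0556 without *vtc2* D14I replicate 2, range -0.36 to 0.0556), *PSAN* at the same step (0.0013 without *vtc2* D14I replicate 1, range -1.93 to 0.0013) and *RCA* from ZE to somatic embryos in *vtc2* (0.11 without *vtc2* ZE replicate 1, range -0.23 to 0.11). Of 2016 values for single genes, 1886 kept direction and call, 87 lost and 39 gained the call. Same-numbered arrays showed no strong shared deviation (28 pairs, correlation -0.14 to 0.16, 3 over 0.1). The main fit therefore used no pairing, but these correlations cannot tell whether same-numbered samples were handled together. The replicate block left 2 calls for the genotypes in somatic embryos. Averaging several probe sets per gene could not be run, as each gene had 1. With 1 array left out the pair comparisons cannot go below an exact p of 0.0571. Weak signals limit *PSAN*, *LHCB4.2* and *PRK* at D14I.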
